A study of Mus musculus with 19 samples.

Results

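The insulin-like growth factor (IGF) system was followed through 10 genes: the ligands Igf1 and Igf2, the receptors Igf1r and Igf2r, and the binding proteins Igfbp2, Igfbp3, Igfbp4, Igfbp5, Igfbp6 and Igfbp7. They were taken by gene symbol from a deposited matrix of 21749 genes, in which each symbol had 1 row, and all 10 passed the filter on low values that left 20644 genes for testing (a log2 value of at least 3.32 in at least 3 libraries). The matrix came from translating ribosome affinity purification (TRAP), in which ribosomes carrying a tagged subunit are pulled down and the messenger RNA on them is sequenced. All mice carried Aldh1l1-EGFP/Rpl10a, a transgene that places EGFP on ribosomal protein L10a under the regulatory sequence of the astrocyte gene Aldh1l1, on a mixed B6 and FVB background. The 4 groups were males (4 libraries, all in batch 4), and females in metestrus (8 libraries: 2 in batch 2, 1 in batch 3 and 5 in batch 4), in proestrus (3 libraries: 2 in batch 2 and 1 in batch 3) and in estrus (4 libraries: 3 in batch 2 and 1 in batch 3). The stage of the cycle was the only treatment given for females, which were sampled at 09:00, and neither the hour for males nor the age of the mice is given in the sources used here. The series describes the tissue as cortex, the sample labels as brain. Library titles of batches 2 and 3 hold the letters CTX, and those of batch 4 do not. Nothing in the labels says whether a library is 1 animal or a pool, so p-values measure the spread between libraries.

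IGF1 and IGF2 are secreted growth factors related to insulin. IGF1R is a receptor tyrosine kinase that carries their signal through PI3-kinase and AKT, whereas IGF2R, the cation-independent mannose 6-phosphate receptor, takes up IGF2 and delivers it to lysosomes and also sorts lysosomal enzymes. The binding proteins hold IGFs outside the cell, extend or limit their access to the receptor and have actions of their own. In the brain, Igf1 is known from neurons and microglia, Igf2 and Igfbp2 from choroid plexus and meninges as well as glia, and Igfbp7 from blood vessels. Circulating IGF1 and estradiol are known to act together on astrocytes and on neuroendocrine cells across the cycle.

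In limma, 0 of the 10 genes passed an adjusted p of 0.05 in proestrus against metestrus, estrus against metestrus, estrus against proestrus or males against metestrus. Over all tested genes, 0.988%, 0.0872%, 0.94% and 0.0242% passed in the same 4 comparisons, so a count of 0 in 10 does not set these genes apart. At an unadjusted p under 0.05 there were 3, 2, 2 and 1 of the 10, where 13.1%, 11.3%, 14.5% and 5.33% of all tested genes had one. In the same order 1, 0, 2 and 0 of the 10 had group ranges that did not overlap, against 8.73%, 3.33%, 9.06% and 1.44% of all tested genes. The 40 fitted differences had standard errors of 0.17 to 0.57 on the log2 scale, and their 95% intervals together ran from -1.75 to 1.67. The difference largest in size was that of Igfbp3 in estrus against proestrus, at 0.97. The values below are therefore a description of levels with the precision these libraries allow, and a missed threshold does not show that 2 groups were alike. Differences within batch 3 compare 1 library of each stage. There every member was lower in estrus than in metestrus, and every member but Igf1 was lower in proestrus than in metestrus. Over all genes, median log2 values of these libraries were 7.47 in metestrus, 7.30 in proestrus and 7.18 in estrus. A negative sign against metestrus in batch 3 is thus not particular to a gene.

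**Figure D1:**
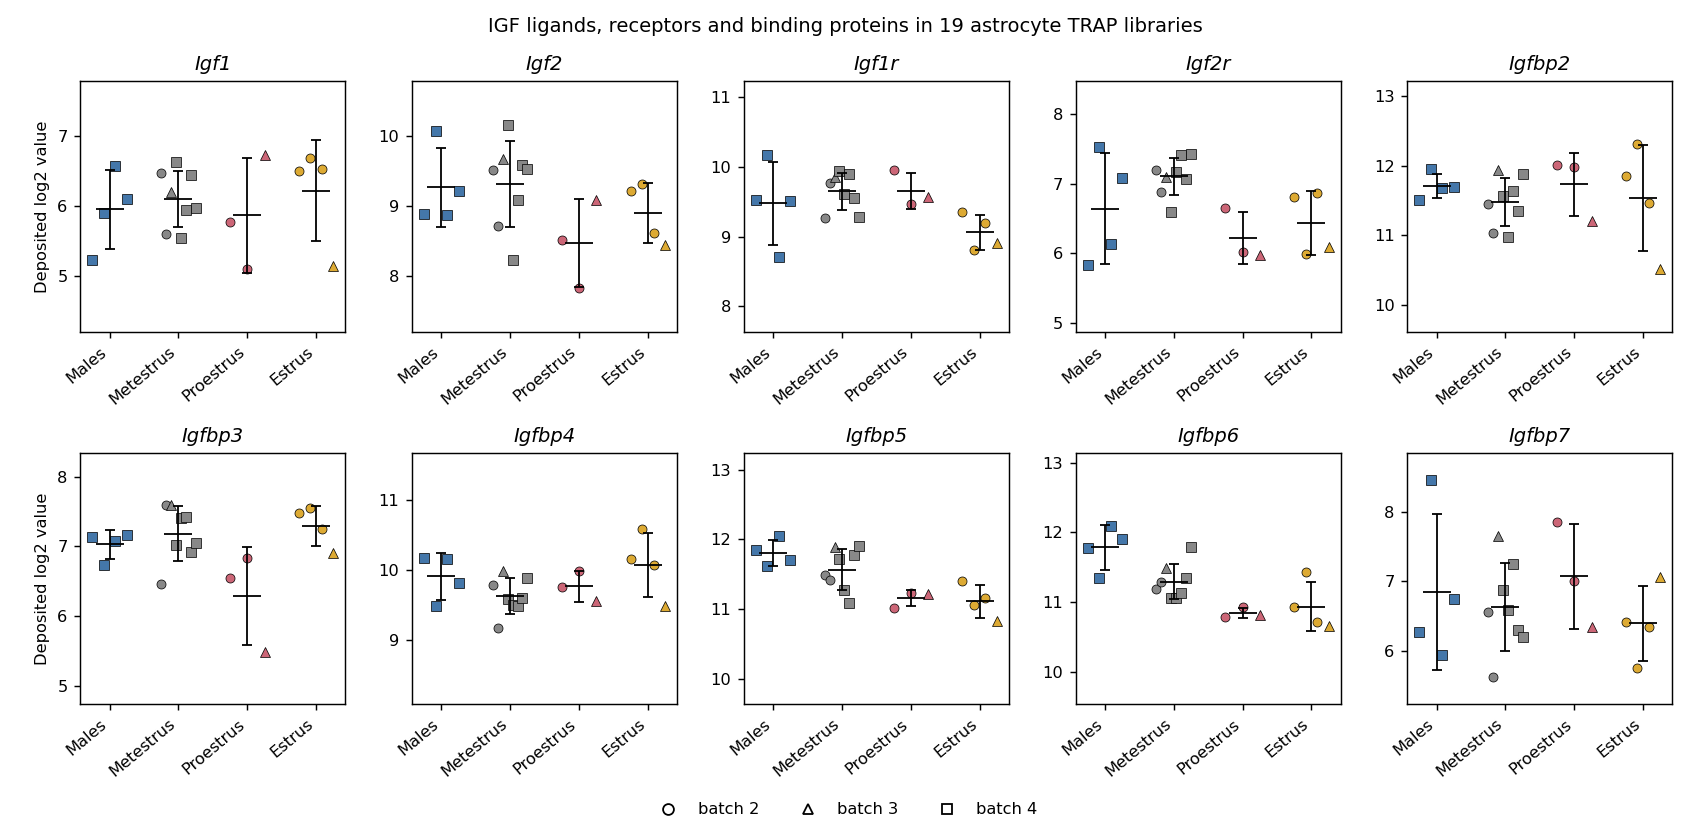
Deposited log2 values of the 10 genes in each of the 19 libraries, by group (males, metestrus, proestrus, estrus; symbols give the batch), with the mean and SD of each group as a bar and whiskers; every panel spans the same number of log2 units. The group ranges overlap in most panels, and the lowest Igfbp3 value, 5.49, is a proestrus library.

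Levels of different genes were set side by side only per length of exon. For this the mean log2 value over the 19 libraries was reduced by the log2 of the gene's summed exon length in kilobases, from GENCODE M21 gene models. That annotation is of GRCm38 while the submitters name GRCm39, and isoform use in these cells is not known. Taking out length assumes that the deposited values rise in proportion to it, but their scaling is not stated. Over the tested genes with a length, level and exon length had a Spearman correlation of 0.285. Per length, Igfbp6 stood at 11.10 ± 0.42 (SD over 19 libraries) and Igfbp2 at 10.69 ± 0.43, above 96.2% and 95.01% of the tested genes with a length. Their order was the other way round when the longest transcript was used as the length, so these leading binding proteins cannot be ranked. Igfbp5 followed at 8.87 ± 0.36 and Igfbp4 at 7.66 ± 0.34, Igf2 at 6.57 ± 0.61 and Igfbp7 at 6.42 ± 0.72. Igf1r at 5.42 ± 0.40 and Igfbp3 at 5.39 ± 0.50 lay below the median gene (5.94). The lowest were Igf2r at 3.51 ± 0.56 and Igf1 at 2.75 ± 0.54, and Igf1 was above 18.4% of tested genes. Per length, Igfbp2, Igfbp4, Igfbp5 and Igfbp6 were each above both ligands and both receptors. Igf2 and Igfbp7 lay within 1 SD of each other, as did Igf1r and Igfbp3, while Igfbp7 and Igf1r were farther apart than either SD. With the longest transcript as the length, Igfbp7 stood at 6.43 and Igf1r at 5.98, closer together than the SD of Igfbp7. Their separation thus depends on the length used. The SD over libraries does not cover the uncertainty of the length.

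**Figure D2:**
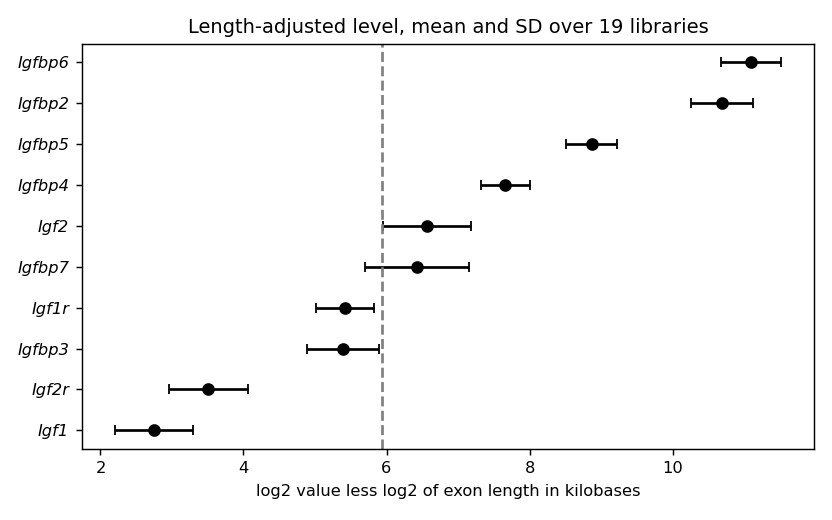
Length-adjusted levels of the 10 genes, as the deposited log2 value less the log2 of exon length in kilobases; points are means and whiskers SDs over the 19 libraries, and the dashed line marks the median of all tested genes with a length (5.94). Igfbp6, Igfbp2, Igfbp5 and Igfbp4 lie well to the right of the line, Igf2 and Igfbp7 just right of it, and Igf2r and Igf1 farthest to its left.

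Igf1 (ENSMUSG00000020053.19), the ligand of the growth hormone axis, read 5.22, 5.91, 6.58 and 6.10 in males, 5.54 to 6.63, with a median of 6.09, in metestrus, 5.77, 5.10 and 6.73 in proestrus, and 6.51, 6.70, 6.54 and 5.14 in estrus, all on the deposited log2 scale. The 4 ranges overlapped, and 3 of the 4 estrus libraries lay close together near the top while the fourth, from batch 3, lay near the bottom. Proestrus against metestrus stood at -0.23 ± 0.51 (SE, 95% interval -1.29 to 0.84, adjusted p = 0.898). Within the batches its difference was -0.60 in batch 2 and 0.53 in batch 3, opposite in sign. Estrus stood at 0.12 ± 0.48 (SE, 95% interval -0.87 to 1.12, adjusted p = 0.953) against metestrus and at 0.35 ± 0.48 (SE, 95% interval -0.65 to 1.34, adjusted p = 0.790) against proestrus, and without the estrus library of batch 3 at 0.73 and 0.96. Within batches estrus against metestrus was 0.54 in batch 2 and -1.07 in batch 3. For males against metestrus, which rests on batch 4, the value was -0.15 ± 0.42 (SE, 95% interval -1.03 to 0.72, adjusted p = 0.999). The order of group means was estrus, metestrus, males, proestrus, and adjusted p-values between neighbours in it were 0.953, 0.999 and 0.980.

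The proximal promoter of Igf1 is shown because estrogen response elements are the sequence that links estrogen receptors to DNA, and the comparison is one of cycle stages. RefSeq promoter sequences (GRCm38.p6, 250 bases before and 50 after the annotated start) matched all 10 genes, with 14 promoters in all. The promoters were searched on both strands for the full estrogen response element (GGTCA and its inverse, 3 bases apart) and its single arm AGGTCA. Also searched were a loose AP-1 pattern, TGANTCA with any base at N, the TATA box TATAAA and the Sp1 GC box GGGCGG. Capitals mark the matches.
Igf1, chr10:87860861-87861160, plus strand: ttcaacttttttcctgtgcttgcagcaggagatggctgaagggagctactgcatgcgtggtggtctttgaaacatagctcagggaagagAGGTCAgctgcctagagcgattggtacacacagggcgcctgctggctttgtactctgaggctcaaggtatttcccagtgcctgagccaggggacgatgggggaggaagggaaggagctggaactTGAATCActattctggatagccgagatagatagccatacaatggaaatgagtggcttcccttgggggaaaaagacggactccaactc
The Igf1 window held 1 AGGTCA and 1 TGANTCA match. AGGTCA was found in 4 of the 14 promoters (1 each of Igf1, Igf1r, Igf2 and Igf2r), and 16.3% of 32851 mouse promoters of this length hold one. TGANTCA was found in 2 of the 14 and in 7.81% of all, and the full element in 0 of the 14 and in 0.07% of all. AGGTCA can overlap the full element, which no member promoter held.

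Igf2 (ENSMUSG00000048583.18), the ligand that also binds IGF2R, read 8.89, 10.08, 8.88 and 9.21 in males, 8.23 to 10.17, with a median of 9.53, in metestrus, 8.51, 7.82 and 9.09 in proestrus, and 9.21, 9.31, 8.61 and 8.44 in estrus. Proestrus held the lowest single library, at 7.82, but its range overlapped that of every other group. Its difference from metestrus was -0.83 ± 0.42 (SE, 95% interval -1.70 to 0.042, adjusted p = 0.409), 0.563-fold, with -0.95 in batch 2 and -0.59 in batch 3. Estrus against metestrus stood at -0.39 ± 0.39 (SE, 95% interval -1.21 to 0.43, adjusted p = 0.751), with -0.070 in batch 2 and -1.24 in batch 3, and males against metestrus at -0.058 ± 0.34 (SE, 95% interval -0.77 to 0.66, adjusted p = 0.999). From highest to lowest mean the groups ran metestrus, males, estrus, proestrus, with adjusted p-values between neighbours of 0.999, 0.868 and 0.653. Igf1 and Igf2 varied in the same direction over the 19 libraries (r = 0.585), which share their group structure and whatever the authors removed from the matrix.

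Igf1r (ENSMUSG00000005533.11), the signalling receptor, read 9.53, 10.17, 8.70 and 9.51 in males, 9.27 to 9.94, with a median of 9.69, in metestrus, 9.95, 9.46 and 9.57 in proestrus, and 9.35, 8.81, 9.20 and 8.90 in estrus. All 4 estrus libraries lay below all 3 proestrus libraries, and the ranges of estrus and metestrus overlapped. Estrus against proestrus was -0.60 ± 0.27 (SE, 95% interval -1.16 to -0.039, adjusted p = 0.301), or 0.661-fold, and had the same sign in batch 2 (-0.59) and batch 3 (-0.67). Against metestrus, estrus stood at -0.57 ± 0.27 (SE, 95% interval -1.13 to -0.012, adjusted p = 0.432), with -0.40 in batch 2 and -0.96 in batch 3. Proestrus against metestrus was near 0, at 0.027 ± 0.29 (SE, 95% interval -0.57 to 0.62, adjusted p = 0.983). Of the 10 genes, 2 had ranges that did not overlap between estrus and proestrus, Igf1r and Igfbp3, where 9.06% of all tested genes had such ranges. Males spanned the widest range of Igf1r values, with the highest (10.17) and the lowest (8.70) of all 19 libraries, and stood at -0.18 ± 0.24 (SE, 95% interval -0.67 to 0.31, adjusted p = 0.996) against metestrus.

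Igf2r (ENSMUSG00000023830.15), the scavenger receptor of IGF2, read 5.83, 7.52, 6.13 and 7.09 in males, 6.60 to 7.42, with a median of 7.13, in metestrus, 6.65, 6.02 and 5.98 in proestrus, and 6.81, 5.995, 6.86 and 6.09 in estrus. In proestrus 2 of 3 libraries, and in estrus 2 of 4, lay below the whole metestrus range. The fitted difference was -0.84 ± 0.41 (SE, 95% interval -1.70 to 0.024, adjusted p = 0.395) for proestrus against metestrus, with -0.70 in batch 2 and -1.12 in batch 3. For estrus against metestrus it was -0.64 ± 0.39 (SE, 95% interval -1.45 to 0.17, adjusted p = 0.552), with -0.48 and -1.01 in those batches. Males against metestrus stood at -0.49 ± 0.34 (SE, 95% interval -1.20 to 0.22, adjusted p = 0.983), and at -0.78 without males replicate 2, the library with the top Igf2r value of that group. Group means ran metestrus, males, estrus, proestrus, with neighbouring adjusted p-values of 0.983, 0.946 and 0.864.

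Igfbp3 (ENSMUSG00000020427.12), the main carrier of IGFs in blood, had the widest spread of group means of the 10 genes, 1.01 log2 units. It read 7.14, 6.73, 7.07 and 7.17 in males, 6.46 to 7.59, with a median of 7.23, in metestrus, 6.55, 6.83 and 5.49 in proestrus, and 7.48, 7.55, 7.26 and 6.90 in estrus. All 4 estrus libraries lay above all 3 proestrus libraries. Estrus averaged 7.29 ± 0.29 (SD, n = 4) and proestrus 6.29 ± 0.71 (SD, n = 3), a fitted difference of 0.97 ± 0.34 (SE, 95% interval 0.27 to 1.67, adjusted p = 0.163), or 1.97-fold. The sign was the same in batch 2 (0.74) and batch 3 (1.41), where 1 library of each stage was compared. With single libraries left out, the fitted difference ran from 0.61, without proestrus replicate 3 (the library at 5.49), to 1.21, without proestrus replicate 2. Proestrus against metestrus was -0.93 ± 0.36 (SE, 95% interval -1.67 to -0.18, adjusted p = 0.256), with -0.34 in batch 2 and -2.10 in batch 3, and the ranges overlapped through metestrus replicate 1 at 6.46. Without that library the difference was -1.41 (adjusted p = 0.0742), and without metestrus replicate 3 it was -0.46. Estrus against metestrus was 0.049 ± 0.34 (SE, 95% interval -0.65 to 0.75, adjusted p = 0.975), with 0.40 in batch 2 and -0.69 in batch 3, and males against metestrus -0.14 ± 0.30 (SE, 95% interval -0.75 to 0.48, adjusted p = 0.999). In order of mean the groups were estrus, metestrus, males and proestrus. Males and proestrus, the neighbours farthest apart, share no batch and had an adjusted p of 0.538.

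**Figure D3:**
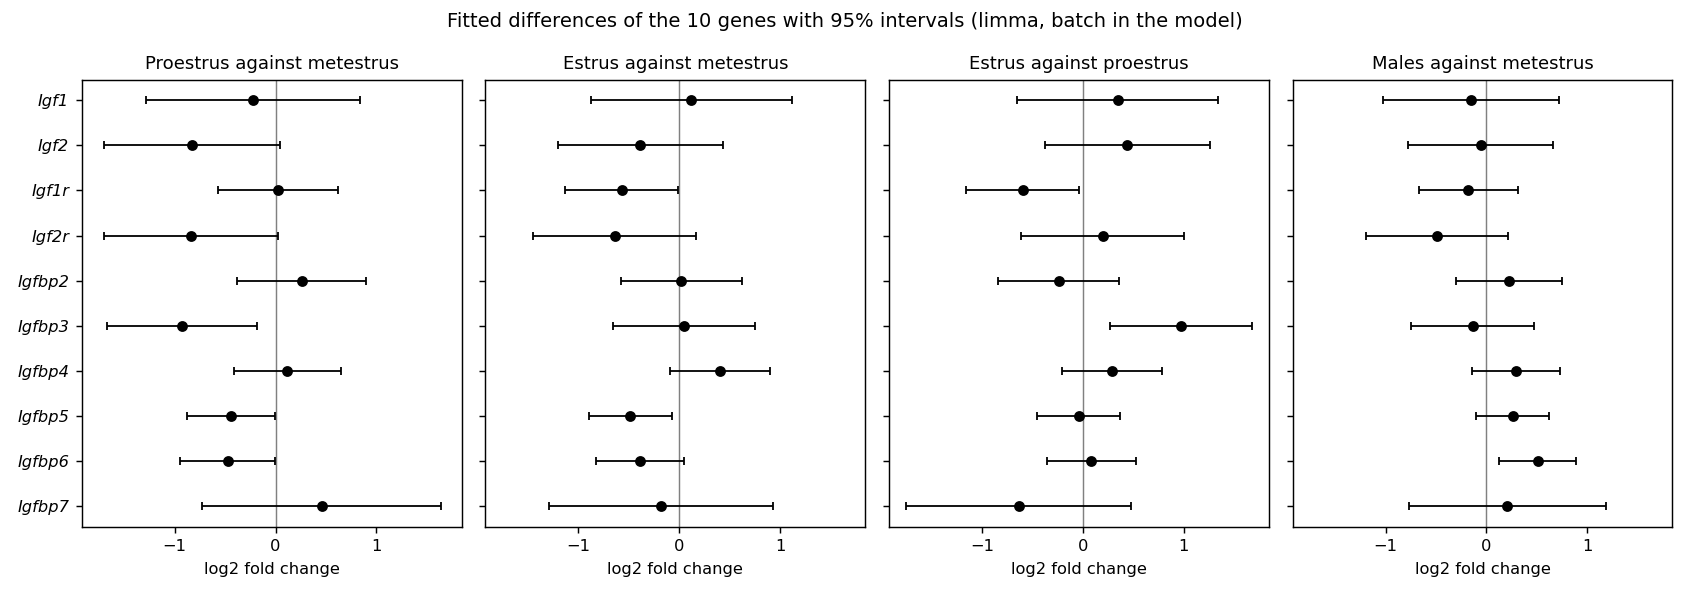
Fitted log2 fold changes of the 10 genes with 95% intervals in 4 comparisons, from limma with group and batch over all 19 libraries; a point right of 0 is a higher value in the group named first. Of 40 intervals 8 exclude 0, and 0 of 40 pass the adjusted threshold.

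Igfbp5 (ENSMUSG00000026185.9), a binding protein held in the extracellular matrix, read 11.84, 11.62, 12.05 and 11.71 in males, 11.08 to 11.90, with a median of 11.60, in metestrus, 11.02, 11.23 and 11.21 in proestrus, and 11.40, 11.06, 11.15 and 10.82 in estrus. The male range lay wholly above those of proestrus and estrus, and overlapped that of metestrus. Igfbp6 (ENSMUSG00000023046.7), which prefers IGF2 over IGF1, read 11.78, 11.35, 12.10 and 11.91 in males, 11.05 to 11.79, with a median of 11.24, in metestrus, 10.79, 10.93 and 10.81 in proestrus, and 10.94, 11.43, 10.71 and 10.65 in estrus. All 3 proestrus libraries lay below the whole metestrus range, and below every male library. Igfbp6 was the 1 gene of the 10 whose proestrus and metestrus ranges did not overlap, where 8.73% of all tested genes did not.

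Proestrus against metestrus was -0.44 ± 0.21 (SE, 95% interval -0.88 to -0.006, adjusted p = 0.374) for Igfbp5 and -0.48 ± 0.22 (SE, 95% interval -0.94 to -0.009, adjusted p = 0.370) for Igfbp6. The sign was negative in both batches for Igfbp5 (-0.33 in batch 2 and -0.68 in batch 3) and for Igfbp6 (-0.38 and -0.67). In batch 3 it was negative for every member but Igf1. Estrus against metestrus stood at -0.49 ± 0.20 (SE, 95% interval -0.90 to -0.074, adjusted p = 0.366) for Igfbp5, with -0.25 in batch 2 and -1.06 in batch 3. For Igfbp6 it stood at -0.39 ± 0.21 (SE, 95% interval -0.83 to 0.048, adjusted p = 0.492), with -0.21 and -0.83. Between estrus and proestrus the values were -0.041 ± 0.20 (SE, 95% interval -0.45 to 0.37, adjusted p = 0.954) for Igfbp5 and 0.085 ± 0.21 (SE, 95% interval -0.35 to 0.52, adjusted p = 0.896) for Igfbp6. These stage comparisons share libraries and are not independent of each other.

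In males against metestrus, Igfbp6 averaged 11.78 ± 0.32 (SD, n = 4) in males and 11.28 ± 0.31 (SD, n = 5) in the metestrus libraries of the same batch. The difference was 0.51 ± 0.18 (SE, 95% interval 0.12 to 0.89, adjusted p = 0.856), or 1.42-fold, the lowest p of the 10 genes in this comparison, and the ranges overlapped, with metestrus reaching 11.79 and males beginning at 11.35. For Igfbp5 the difference was 0.26 ± 0.17 (SE, 95% interval -0.10 to 0.62, adjusted p = 0.978). No batch held males beside proestrus or estrus libraries, so batch and group cannot be told apart there. The deposited values had already lost 97.9% of the direction that parts metestrus libraries of batch 4 from those of batches 2 and 3. Metestrus means of Igfbp6, for example, were 11.32 in batches 2 and 3 and 11.28 in batch 4. The model links males to the other stages through metestrus, so this link could correct little for batch. So linked, males against proestrus was 0.98 ± 0.29 (SE, 95% interval 0.38 to 1.59, adjusted p = 0.178) for Igfbp6 and 0.70 ± 0.27 (SE, 95% interval 0.14 to 1.27, adjusted p = 0.328) for Igfbp5. Males against estrus was 0.90 ± 0.28 (SE, 95% interval 0.32 to 1.48, adjusted p = 0.283) for Igfbp6 and 0.74 ± 0.26 (SE, 95% interval 0.20 to 1.29, adjusted p = 0.349) for Igfbp5. With no batch term in the model these 4 differences had adjusted p-values of 0.00571 and 0.0323 against proestrus, and 0.00815 and 0.0160 against estrus, for Igfbp6 and Igfbp5 in that order, and limma then called 8.49% and 9.56% of all tested genes. With the batch term 0.174% of tested genes passed in males against proestrus. In males against estrus 0 passed in limma, while 2138 (10.4%) had an unadjusted p under 0.05. Unadjusted, 2 of the 10 genes were under 0.05 in each of these comparisons, and 11.1% of all tested genes were in males against proestrus. Ranges of males and estrus did not overlap for 1 of the 10, Igfbp5, and for 11.9% of all. Ranges of males and proestrus did not overlap for 2 of the 10 genes, Igfbp5 and Igfbp6, where 21.1% of all tested genes did not.

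**Figure D4:**
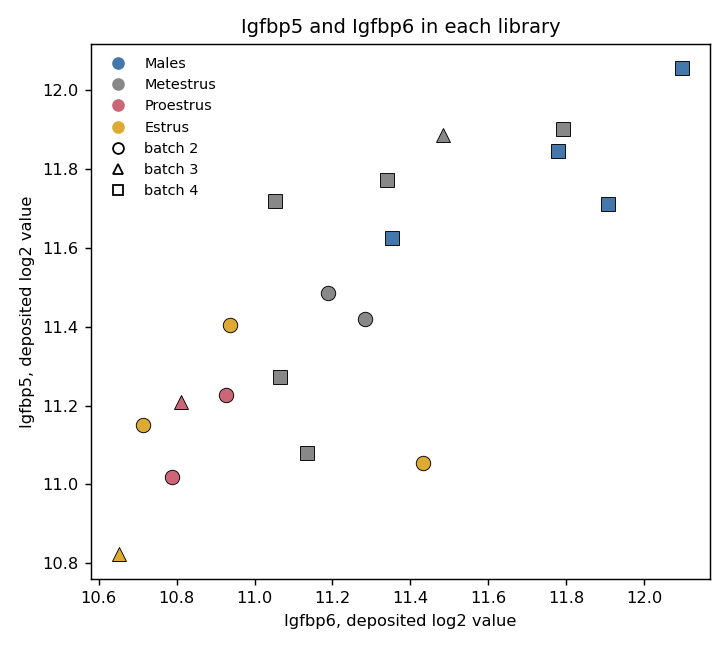
Igfbp5 against Igfbp6 in each of the 19 libraries, both as deposited log2 values; colours give the group and symbols the batch. Males lie toward the upper right. Proestrus libraries, with Igfbp6 at most 10.93, lie at the lower left together with some estrus libraries. Estrus replicate 4 has the lowest value of both genes (Igfbp5 10.82, Igfbp6 10.65).

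Igfbp5 and Igfbp6 were the pair of members most alike over the 19 libraries (r = 0.801, Spearman rho 0.768), but r was 0.549 once group and batch means were taken out, and 7 other pairs were then above it. Highest among those were Igfbp4 and Igfbp6 (r = 0.730), Igf1r and Igfbp7 (0.688), Igfbp2 and Igfbp4 (0.682) and Igf1 and Igf2 (0.672). The mean log2 value of 16 astrocyte markers had the group order of Igfbp6 (males, metestrus, estrus, proestrus), with estrus and proestrus the other way round for Igfbp5. The marker mean was 14.12 to 14.33 in males, 13.82 to 14.36 in metestrus, 13.92 to 13.94 in proestrus and 13.57 to 14.14 in estrus. Its group means were 14.02 ± 0.19 (SD) in metestrus, 13.94 ± 0.27 in estrus and 13.93 ± 0.013 in proestrus, so the order of the stages is not resolved. Taken back from the log and summed, those markers came to 463418 to 665812 in males, 406891 to 560217 in metestrus, 463163 to 478105 in proestrus and 377805 to 547579 in estrus, and all 16 were above the filter value in every group. Over the 19 libraries Igfbp5 correlated with the marker mean at r = 0.785 and Igfbp6 at r = 0.690. With group and batch means taken out these were 0.784 for Igfbp5 and 0.509 for Igfbp6. The part of these markers in the values of both genes was not tested. Their promoters, from the same RefSeq table and build, are shown because the comparisons with males turn on these genes.
Igfbp5, chr1:72874816-72875115, minus strand: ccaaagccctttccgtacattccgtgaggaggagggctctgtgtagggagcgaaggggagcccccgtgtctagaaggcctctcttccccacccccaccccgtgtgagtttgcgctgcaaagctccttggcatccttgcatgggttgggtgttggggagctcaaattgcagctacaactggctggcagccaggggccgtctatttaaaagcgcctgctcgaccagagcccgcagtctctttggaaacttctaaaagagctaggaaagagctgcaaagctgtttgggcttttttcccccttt
Igfbp6, chr15:102143936-102144235, plus strand: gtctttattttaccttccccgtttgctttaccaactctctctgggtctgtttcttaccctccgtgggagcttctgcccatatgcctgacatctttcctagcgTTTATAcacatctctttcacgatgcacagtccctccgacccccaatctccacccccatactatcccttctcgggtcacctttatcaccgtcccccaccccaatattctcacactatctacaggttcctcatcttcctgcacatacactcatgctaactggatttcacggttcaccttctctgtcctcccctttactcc
Neither window held the single arm of the element, the AP-1 pattern or the GC box. The Igfbp6 window held 1 TATAAA match on the opposite strand, and that of Igfbp5 held none of the motifs, where 13.6% of all promoters hold TATAAA and 35.7% hold GGGCGG.

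Igfbp2 (ENSMUSG00000039323.19), an abundant binding protein of the developing and adult brain, ranged over 11.51 to 11.94 in males, 10.98 to 11.93 in metestrus, 11.20 to 12.005 in proestrus and 10.52 to 12.31 in estrus. Its group means differed by 0.25 at most, the narrowest spread of the 10 genes, while its estrus libraries alone spanned the highest and the lowest value. Differences were 0.26 ± 0.31 (SE, 95% interval -0.38 to 0.90, adjusted p = 0.778) for proestrus and 0.022 ± 0.29 (SE, 95% interval -0.58 to 0.62, adjusted p = 0.986) for estrus, each against metestrus. Males against metestrus stood at 0.23 ± 0.25 (SE, 95% interval -0.30 to 0.75, adjusted p = 0.992). In batch 2 proestrus stood 0.75 above metestrus, and in batch 3 the difference was -0.73. Estrus against metestrus was 0.64 in batch 2 and -1.42 in batch 3, also opposite in sign.

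Igfbp4 (ENSMUSG00000017493.13), a binding protein that blocks IGF action until the protease PAPP-A cleaves it, ranged over 9.48 to 10.17 in males, 9.17 to 9.98 in metestrus, 9.55 to 9.99 in proestrus and 9.48 to 10.58 in estrus. Its order of means was estrus, males, proestrus, metestrus, with adjusted p-values of 0.933, 0.875 and 0.894 between neighbours. Estrus against metestrus was 0.41 ± 0.24 (SE, 95% interval -0.088 to 0.90, adjusted p = 0.532), with 0.79 in batch 2 and -0.50 in batch 3. Males against metestrus was 0.30 ± 0.21 (SE, 95% interval -0.14 to 0.73, adjusted p = 0.983). Igfbp7 (ENSMUSG00000036256.14), a distant relative with low affinity for IGFs, ranged over 5.93 to 8.45 in males, 5.63 to 7.65 in metestrus, 6.34 to 7.86 in proestrus and 5.76 to 7.06 in estrus. It varied most between libraries of the 10 genes (SD 0.72 over 19 libraries), and males replicate 2 held its highest value, 8.45. Proestrus against metestrus was 0.46 ± 0.57 (SE, 95% interval -0.73 to 1.64, adjusted p = 0.793), with 1.34 in batch 2 and -1.30 in batch 3, opposite in sign.

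The rest of the pathway was read from a list of 58 further genes, from the insulin receptor and its substrates to the kinases of the AKT and mTOR branches, of which 50 were tested. In limma 0 of the 50 passed in any of the 6 comparisons, and 1 to 4 had an unadjusted p under 0.05 (2% to 8% of the list). Over all tested genes 5.33% to 14.5% had one, and the list's share was below that of all tested genes in each of the 6 comparisons. The list's median log2 fold change was 0.020 in proestrus against metestrus, -0.12 in estrus against metestrus, -0.099 in estrus against proestrus and 0.081 in males against metestrus. Over all tested genes the medians were -0.089, -0.069, 0.024 and 0.037. For the 10 members they were -0.34, -0.28, 0.14 and 0.07, and 4, 4, 6 and 5 of the 10 were positive.

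Among the receptors and adaptors, the insulin receptor Insr stood at 0.049 (adjusted p = 0.967) in proestrus and -0.40 (adjusted p = 0.650) in estrus, each against metestrus. The docking protein genes Irs1 and Irs2, which pass the signal from both receptors to PI3-kinase, stood at -0.38 (adjusted p = 0.669) and -0.32 (adjusted p = 0.679) in proestrus against metestrus, and at -0.67 (adjusted p = 0.413) and -0.19 (adjusted p = 0.839) in estrus against metestrus. Grb10, an adaptor that dampens both receptors, was at 0.75 (adjusted p = 0.386) and 0.60 (adjusted p = 0.520) in the same 2 comparisons. Of the genes that act on growth hormone, its receptor Ghr was at -0.035 (adjusted p = 0.976) in proestrus and 0.38 (adjusted p = 0.629) in estrus against metestrus. Socs2, which limits growth hormone signalling, was at -0.60 (adjusted p = 0.299) in estrus against metestrus and at 0.39 (adjusted p = 0.934) in males against metestrus. The metalloprotease gene Pappa2 and its inhibitors Stc1 and Stc2, which govern cleavage of some binding proteins, had log2 fold changes of 0.51 (adjusted p = 0.919), 1.85 (adjusted p = 0.348) and -0.60 (adjusted p = 0.906) in proestrus against metestrus. Mean levels of Pappa2 and Stc2 lay below the filter value in all 4 groups, so these are poorly measured. Igfbpl1 and Pappa did not pass the filter, and the matrix held no row with the symbol Igfals.

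Astrocyte markers were abundant in every library, and markers of other cells were present beside them. In bulk libraries fewer cells of a type and less RNA per cell cannot be told apart. Of the markers, all 11 of microglia were above the filter value in every group, and their mean was 7.24 to 7.89 in males, 7.25 to 7.91 in metestrus, 7.58 to 8.06 in proestrus and 7.36 to 7.92 in estrus. The mean of 14 endothelial and mural markers was 5.52 to 7.23 in males, 5.36 to 6.54 in metestrus, 5.40 to 6.23 in proestrus and 4.55 to 5.54 in estrus, with 1 to 3 of the 14 below the filter value in a group, among them Tek, Cdh5, Kcnj8, Abcc9 and Myh11. Choroid plexus and ependymal markers, with 3 to 5 of 12 below the filter value in a group, averaged 3.92 to 6.77 in males, 4.05 to 7.12 in metestrus, 4.51 to 4.94 in proestrus and 4.75 to 5.63 in estrus. Of those 12, Aqp1 and Prlr lay below the filter value in all groups, and the mean of the list was 4.86 in males, 5.30 in metestrus, 4.72 in proestrus and 5.17 in estrus. The mean of 10 fibroblast and meningeal markers was 6.397 in males, 6.27 in metestrus, 6.92 in proestrus and 6.74 in estrus. In that list Aspn lay below the filter value in males (-0.70) and metestrus (1.43), but was at 6.75 in proestrus and 4.13 in estrus. The spread of Aspn enters the group means of that list. The mean of 14 neuronal markers was 11.53 in males, 11.50 in metestrus, 11.52 in proestrus and 11.54 in estrus. That of 11 oligodendrocyte markers was 9.66 in males, 9.55 in metestrus, 9.73 in proestrus and 9.83 in estrus. Over the 19 libraries Igf2 correlated with the choroid plexus list at r = 0.633 (0.695 with group and batch means taken out) and with the microglial list at 0.554 (0.878 with group and batch means taken out). Igf1 correlated with the microglial list at 0.579 (0.683 with group and batch means taken out), Igfbp2 with the fibroblast and meningeal list at 0.633 (0.618 with group and batch means taken out), and Igfbp7 with the endothelial and mural list at 0.445 (0.420 with group and batch means taken out). These were not always the closest lists. Igfbp7 correlated with the neuronal list at 0.485 (0.551 with group and batch means taken out). With the choroid plexus list it correlated at 0.352 (0.507 with those means taken out). Igfbp2 correlated with the microglial list at 0.5045 (0.646 with those means taken out). The part of these cells in the values of these genes was not tested further. The sex labels held for 4 Y-linked genes, such as Ddx3y at 7.47 to 8.47 in males and -1.91 to 4.03 in females, while Xist overlapped, at 0.041 to 5.11 in males and 4.51 to 9.82 in females.

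For each member the 2 tested genes with the most similar profile were listed by Pearson's r of log2 values over the 19 libraries, which share groups, batches and the authors' processing. Nearest to Igf1 were P2ry12 (r = 0.828) and Tceanc (r = 0.825), the first being a microglial purinergic receptor. Igf2 was nearest to Mmp28 (r = 0.858) and Gm32468 (r = 0.855), Igf1r to Ptprd (r = 0.899) and Cacna1a (r = 0.867), and Igf2r to Myh10 (r = 0.869) and 1810059H22Rik (r = 0.849). Among binding proteins, the nearest were Mir9-3hg (r = 0.852) and Hs3st1 (r = 0.845) for Igfbp2, Sstr1 (r = 0.882) and Fbxo27 (r = 0.858) for Igfbp3 and Fbl (r = 0.899) and Ywhah (r = 0.893) for Igfbp4. Igfbp5 was nearest to Btg1 (r = 0.934) and 9530068E07Rik (r = 0.932), Igfbp6 to Ctxn1 (r = 0.919) and Alpl (r = 0.919), and Igfbp7 to Gm6192 (r = 0.805) and Sez6 (r = 0.805). Partners were picked from all tested genes as the highest of many values, so their r is a description.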

How the data were processed

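TRAP libraries of astrocyte RNA were sequenced, and the authors deposited 1 matrix of log2 values for 21749 genes in 19 libraries. Per the submitters' processing notes, STAR, Salmon, edgeR and GRCm39 were used, without versions, and neither scaling nor pseudocount is stated there. Base 2 was taken because the values raised from it total 1.98e7 to 2.56e7 in each library. Sequencing depth is unknown. After group means were taken out the libraries spanned 11 dimensions in place of 15. So 4 directions had been removed from the deposited log2 values, with group means kept. The residual degrees of freedom are therefore overstated. Of the removed directions 3 lay mostly outside the batch terms, and with these in the model 10 degrees of freedom remain in place of 13. That removal covered 97.9% of the direction that parts metestrus libraries of batch 4 from those of batches 2 and 3. In limma 3.58.1 (R 4.3.3) a model of group plus batch was run on 19 libraries (trend and robust options, 13 residual degrees of freedom), with two-sided p-values adjusted by the Benjamini-Hochberg method over 20644 genes. Fold changes are the first group over the second, with intervals at 95%. Alternatives covered filters, a pseudocount of 10, scaling, the batch term, the robust option, the removed directions, the libraries fitted and each library left out. Lengths from GENCODE M21 were found for 18451 of the tested genes (89.4%), and the comparison of levels per length was added after seeing the data. Members and lists were chosen with earlier results of these data known. All members are named. Further pathway genes are named if past the threshold or in a set of names, and so are the 2 genes most correlated with each member.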

Additional observations from a re-analysis of the deposited data

Results flagged for a closer look

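Of 30 groups of 4 to 10 libraries examined across the 10 genes, 1 held a library far from the others. Igf1 in estrus replicate 4, the estrus library of batch 3, was at 5.14, and the other 3 estrus libraries lay between 6.51 and 6.70. Chance flags about 1 in 20 such groups. Without that library, estrus against metestrus for Igf1 was 0.73 and estrus against proestrus 0.96 on the log2 scale, and neither passed the adjusted threshold in limma (adjusted p = 0.495 and 0.276).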

How the results depend on the processing

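Without the batch term, 2 members passed in males against proestrus and 2 in males against estrus (Igfbp5 and Igfbp6). Of the further pathway genes 1 passed in proestrus against metestrus (Pik3r1), 1 in estrus against metestrus (Socs2), 1 in males against proestrus (Pik3r1) and 5 in males against estrus (Socs2, Pik3ca, Foxo1, Foxo6 and Ghr), which is 2%, 2%, 2% and 10% of the 50. Of all tested genes 5.55%, 4.35%, 8.49% and 9.56% then passed. The cause was not tested. Under the other alternatives, 0 members and 0 further pathway genes passed in limma. Of 808 recomputed differences of members, 776 kept their sign and stayed short of the threshold, 4 passed it, and 28 changed sign. Of these, 27 came from leaving out 1 library. With single libraries left out, estrus against metestrus ran from -0.17 to 0.73 for Igf1, -0.32 to 0.57 for Igfbp2, -0.45 to 0.48 for Igfbp3 and -0.65 to 0.31 for Igfbp7. With single libraries left out, estrus against proestrus ran from -0.097 to 0.96 for Igf1, -0.45 to 0.13 for Igfbp2, -0.14 to 0.14 for Igfbp5 and -0.075 to 0.22 for Igfbp6. With single libraries left out, males against metestrus ran from -0.36 to 0.089 for Igf1, -0.41 to 0.079 for Igf1r, -0.33 to 0.15 for Igf2 and -0.33 to 0.51 for Igfbp7. With single libraries left out, proestrus against metestrus ran from -0.89 to 0.20 for Igf1, -0.17 to 0.20 for Igf1r, -0.072 to 0.85 for Igfbp2, -0.18 to 0.47 for Igfbp4 and -0.055 to 1.22 for Igfbp7. With the numbers of the batch 4 titles as a replicate block, males against metestrus was 0.0100 for Igf2, and 0 members and 0 further pathway genes passed. What those numbers stand for is not stated. Deviations of same-numbered libraries correlated at 0.16, 0.03, -0.26 and -0.13. Such few values, from a matrix with directions already removed, cannot show whether the numbers pair the libraries. Over all genes, males against metestrus gave 4 calls with that block and 5 without it. Counts of calls over all genes were 1146 and 899 without the batch term in proestrus and estrus against metestrus (204 and 18 with it), and estrus against proestrus then gave 217 higher and 144 lower (123 and 71 with it). In these 3 stage comparisons they were 20, 0 and 29 with the removed directions counted, 45, 0 and 79 with a stricter filter, and 1, 0 and 0 in batches 2 and 3 alone. Males against metestrus gave 10 without the batch term, 1 with the stricter filter and 13 with a pseudocount of 10 (5 in limma as fitted here). Males against proestrus gave 1752 without the batch term, 2 with removed directions counted and 12 with the stricter filter (36), and males against estrus 1974 without the batch term and 8 with the pseudocount (0). With libraries centred on their medians, estrus against proestrus gave 310 calls, 209 higher and 101 lower, where uncentred values gave 123 higher and 71 lower. With a pseudocount of 10, proestrus against metestrus gave 105 higher and 59 lower calls in place of 48 and 156, estrus against metestrus 13 and 1 in place of 4 and 14, estrus against proestrus 111 and 127, and males against proestrus 18 and 34 in place of 28 and 8. Depth is unknown, so what it limits was not assessed.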
